A study of Mus musculus with 6 samples.

Results

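The genes of blood coagulation and fibrinolysis were examined in mouse liver by RNA sequencing. The set holds 32 genes, listed by name and matched to the gene symbols of the deposited files, where each symbol belonged to 1 of 21899 gene identifiers. All 32 passed the filter on low counts that left 12845 genes for testing. Of the 32, 22 are known to be made mainly by hepatocytes and 10 mainly by other cells.

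Coagulation is a cascade of serine proteases. Tissue factor with factor VII, or the contact system with factor XI, leads to factor X and then to thrombin, which cuts fibrinogen into fibrin, and factor XIII cross-links the clot. Antithrombin, heparin cofactor II, the protein C pathway and tissue factor pathway inhibitor restrain the cascade. Plasmin, released from plasminogen by the urokinase or tissue activator, dissolves fibrin. Hepatocytes are the source of most of the circulating factors, while endothelial cells, macrophages and other non-parenchymal cells supply the cell-surface receptors, the plasminogen activators and factor VIII.

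Livers came from C57BL/6 mice, 3 fed CDAA and 3 fed CSAA, the control feed. CDAA usually means a choline-deficient, amino acid-defined diet, and CSAA its choline-supplemented counterpart. Animals began at an age of 6 weeks with 1 week of acclimatisation. The CDAA mice then received mixtures of the feeds for 1 week, and sampling followed in week 6 after this transition. No genotype, transgene or other agent is given in the labels, and each library is labelled as a separate mouse liver.

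Libraries held 14580676 to 15291743 reads over genes in CDAA and 15459290 to 17367173 in CSAA. The groups are called by their labels, because no transcript reports which feed a mouse received. Hepatocyte markers were abundant in every library: Alb, albumin, was at 70983, 81892 and 84162 CPM in CDAA and at 49590, 59692 and 66820 CPM in CSAA. CPM stands for counts per 1e6 reads on TMM-scaled library sizes, a scaling that centres the bulk of genes between libraries. The summed level of 18 monocyte and macrophage markers ran from 638.1 to 839.7 CPM in CDAA and from 1510 to 2318 CPM in CSAA, and 13 of the 18 were lower in CDAA. The sum of 12 endothelial markers ran from 551.1 to 590.6 CPM in CDAA and from 717.8 to 749.6 CPM in CSAA, with 4 lower. Many genes of inflammation and fibrosis were thus higher in CSAA, the control feed. A choline-deficient diet is generally used to bring about inflammation and fibrosis in mouse liver. Not every marker moved this way. Acta2 and Des, from the stellate cell and fibroblast list, had positive log2 fold changes that did not pass (0.89 and 0.39, edgeR adjusted p = 0.343 and 0.695). Gpnmb, a gene of lipid-laden macrophages, was at 0.836, 2.29 and 0.923 CPM in CDAA and at 315.0, 75.1 and 79.5 CPM in CSAA (log2 -6.85, edgeR adjusted p = 0.00192). Col1a1, a collagen gene of stellate cells, was at 37.5, 16.5 and 24.9 CPM in CDAA and at 171.7, 90.4 and 115.8 CPM in CSAA (log2 -2.26, edgeR adjusted p = 0.00483). Whether the labels of the groups were exchanged was not tested, and an exchange would turn every direction given here. Pancreatic acinar markers summed to 2062 CPM in CDAA replicate 1, against at most 14.6 CPM elsewhere, and striated muscle markers to 216.3 CPM there, against at most 1.28 CPM.

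In most of the 32 genes the sign of the fold change went with the cells that make them. This split was not tested. Of the 22 made mainly by hepatocytes, 20 had positive log2 fold changes for CDAA over CSAA and their median was 0.40. All 10 genes made mainly by other cells had negative ones, with a median of -0.50. The median of all 12845 tested genes was 0.00. Without the TMM factors that overall median moved by -0.28, and the medians of the hepatocyte genes and of the others were then 0.12 and -0.79, with F5 and F12 turning negative. A list of 13 general hepatocyte markers lay alongside the hepatocyte genes of coagulation, with 12 of 13 positive and a median of 0.44 (0.16 without the TMM factors). The exception, Hpx, was called lower (log2 -0.91, edgeR adjusted p = 0.00794) and also stands on the acute phase list given below. By edgeR's quasi-likelihood test with Benjamini-Hochberg adjustment over all tested genes, Klkb1 and F10 were higher in CDAA and Plau, Plaur, Plat and Procr were lower, while 26 did not pass at an adjusted p under 0.05. Thus 6.25% of the members were called higher, where 4.25% of all tested genes were, and 12.5% lower, where 10.5% of all were. These shares lie near the background, and the difference between them was not tested. Without CSAA replicate 3 the count higher was 7, through F13b, Fga, Fgb, Fgg and Hrg, and without CDAA replicate 2 it was 0.

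Both hepatocyte genes called were higher and the 4 others called were lower. In the edgeR test 0 of 22 hepatocyte genes were lower, and 0 were at an unadjusted p under 0.05 in that direction or by DESeq2, another count test. Of the 10 genes of other cells 0 were higher by any of these. In 12 members (37.5%) every CDAA library lay above every CSAA library, against 15.6% of all tested genes, and all 12 are hepatocyte genes. The same held for 6 of the 13 general hepatocyte markers (46.2%), beside 54.5% of the 22 hepatocyte genes of coagulation. In 4 (12.5%) every CDAA library lay below every CSAA library, against 20.4% of all tested genes. DESeq2 called 12 members higher (37.5%, against 7.89% of all genes it tested) and the same 4 lower (12.5%, against 11.3%). Of the general hepatocyte markers DESeq2 called 46.2% higher as well. The number of genes called higher therefore depended on the tool, since 10 hepatocyte genes passed with DESeq2 and not with edgeR. These were F2, F9, F12, Fga, Fgb, Fgg, Serpinc1, Proc, Plg and Kng1.

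**Figure D1:**
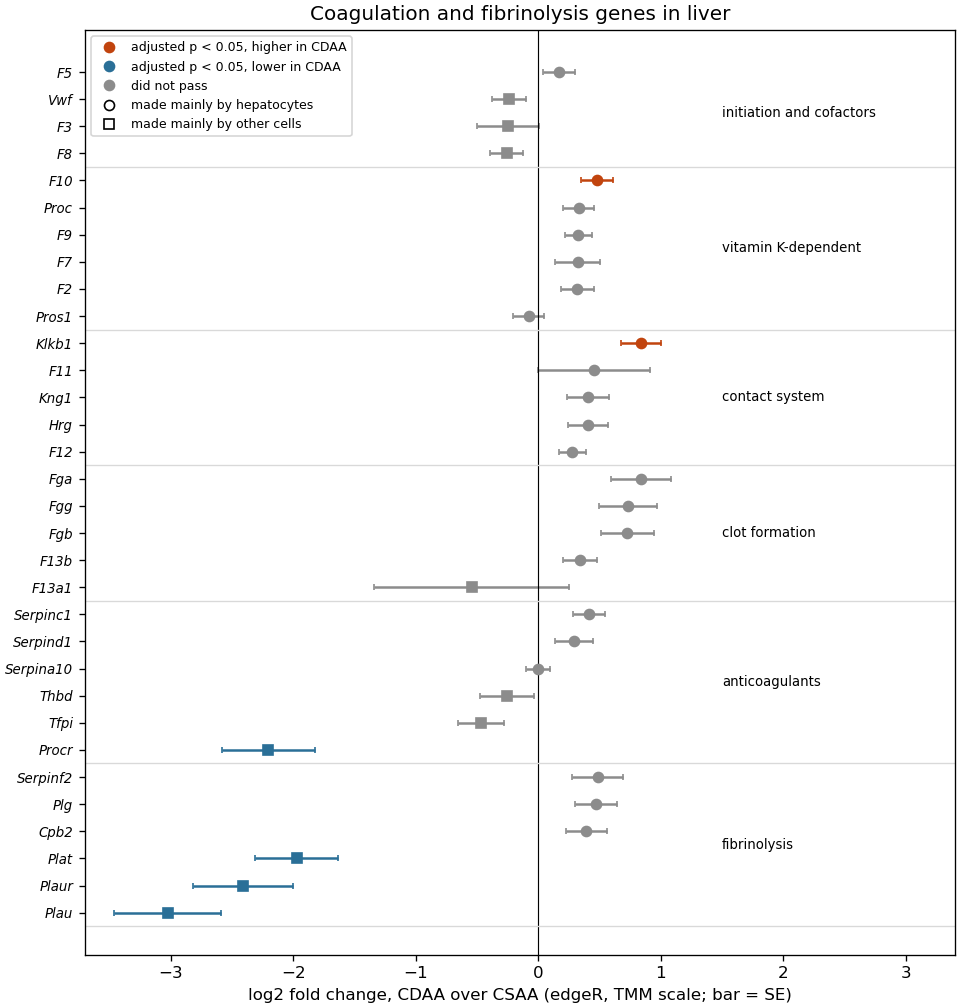
Log2 fold change of each of 32 genes, CDAA over CSAA, by edgeR on the TMM scale, with the standard error as a bar and genes grouped by role. Circles are genes made mainly by hepatocytes and squares genes made mainly by other cells. Klkb1 and F10 passed as higher, Plau, Plaur, Plat and Procr as lower, and the other 26 (grey) did not pass.

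Levels compared between genes are given per length, as RPKM (CPM per kilobase of the gene length listed in the files). Fibrinogen transcripts led the set. Fga, the fibrinogen alpha chain, averaged 2127 ± 193 RPKM in CDAA and 1192 ± 371 in CSAA (mean ± SD, n = 3 each). Fgb, the beta chain, averaged 1418 ± 81.4 RPKM in CDAA and 856.5 ± 227 in CSAA. Fgg, the gamma chain, averaged 1259 ± 133 RPKM in CDAA and 758.8 ± 236 in CSAA. Kng1, kininogen, and Plg, plasminogen, came next in both groups. Every hepatocyte gene had a higher mean RPKM than every gene of other cells in both groups. The lowest hepatocyte gene was Pros1, protein S, with 16.2 ± 2.56 RPKM in CDAA and 17.2 ± 0.750 in CSAA. The highest gene of other cells was F8, factor VIII, with 3.41 ± 0.208 RPKM in CDAA and 4.07 ± 0.666 in CSAA. The lowest were Plat in CDAA, with 0.214 ± 0.0811 RPKM, and F13a1 in CSAA, with 0.378 ± 0.0424 RPKM. Together the 32 genes took 2.48 to 2.68% of all reads in CDAA libraries and 1.82 to 2.44% in CSAA libraries.

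**Figure D2:**
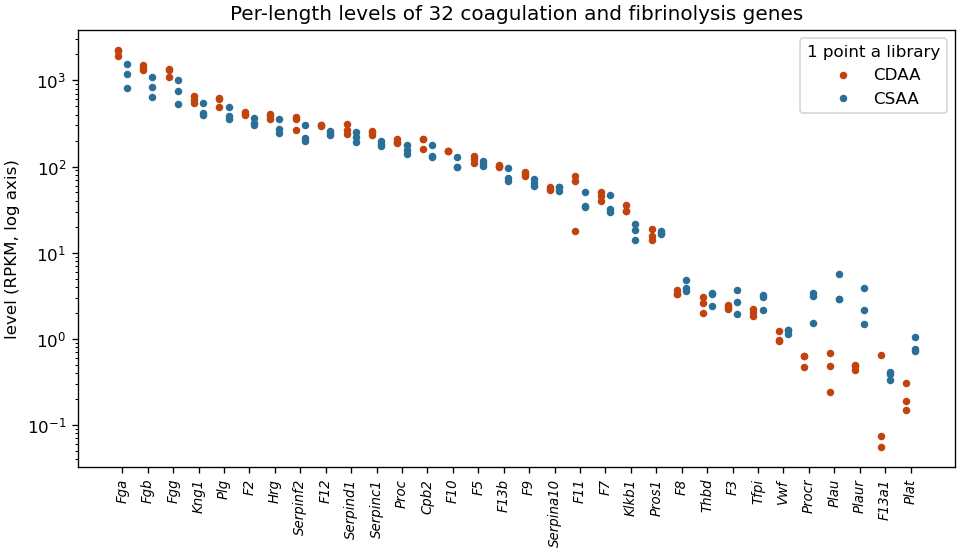
Level of each of 32 genes as RPKM on a log axis, 1 point a library, CDAA left of CSAA within each gene, ordered by the CDAA mean. The 22 hepatocyte genes fill the left of the plot, down to Pros1 at 16.2 RPKM, and the 10 genes of other cells lie below all of them.

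Of the 4 initiation factors and cofactors, 0 passed with edgeR, 0 had an unadjusted p under 0.05 and 0 passed with DESeq2. F3, tissue factor, the cell-surface trigger of coagulation, was at 6.16, 5.85 and 5.54 CPM in CDAA and at 6.78, 4.90 and 9.19 CPM in CSAA (log2 -0.25 ± 0.25 SE, edgeR adjusted p = 0.555). The CSAA libraries spanned the CDAA ones on both sides. F5, the cofactor of factor X, averaged 909.3 ± 88.1 CPM in CDAA and 807.0 ± 56.6 in CSAA (log2 0.17 ± 0.13, edgeR adjusted p = 0.422). F8, the cofactor of factor IX, made largely by liver endothelium, was at 36.1, 32.5 and 32.6 CPM in CDAA and at 38.1, 47.8 and 35.1 in CSAA (log2 -0.26 ± 0.13, edgeR adjusted p = 0.233). Vwf, von Willebrand factor, the endothelial carrier of factor VIII, was at 19.6, 15.3 and 15.3 CPM in CDAA and at 20.4, 20.4 and 18.4 in CSAA (log2 -0.24 ± 0.14, edgeR adjusted p = 0.289). F8 overlaps Fundc2 on the opposite strand, as do Serpinc1, Serpind1 and Plg with other genes, and the strand setting of the counts is not known. For both F8 and Vwf the groups overlapped only because CDAA replicate 1 lay above CSAA replicate 3. That CDAA library holds the pancreatic acinar and striated muscle transcripts, and their part in its F8 and Vwf levels was not tested. The ratio of F3 to Tfpi reads, trigger to inhibitor, was 0.614, 0.523 and 0.453 in CDAA and 0.402, 0.418 and 0.521 in CSAA. That ratio differed by 0.24 on the log2 scale (exact two-sided permutation p = 0.2, where 3 against 3 libraries cannot go below 0.1).

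Of the 6 vitamin K-dependent genes, which need gamma-carboxylation to bind membranes, 1 rose with edgeR and 5 did not pass. The share higher was 16.7%, against 4.25% of all tested genes. DESeq2 called 4 higher (66.7%, against 7.89% of all genes it tested). These were F10, F2, F9 and Proc (DESeq2 adjusted p = 0.0038, 0.0195, 0.0269 and 0.0395). F10, factor X, where both arms of the cascade meet, was at 411.5, 413.8 and 411.5 CPM in CDAA and at 271.6, 268.1 and 349.1 CPM in CSAA. All CDAA libraries lay above all CSAA libraries and spread less among themselves. The log2 fold change was 0.48 ± 0.13 (SE, edgeR adjusted p = 0.0476). The call did not hold when any library except CSAA replicate 3 was left out, with edgeR adjusted p between 0.0645 and 0.160 in those 5 fits, nor on library size only (log2 0.20, edgeR adjusted p = 0.246), with upper-quartile factors (0.0632), with no filter on low counts (0.0545) or with the replicate block (0.0808). F9, factor IX, averaged 224.1 ± 12.4 CPM in CDAA and 178.7 ± 17.4 in CSAA (log2 0.33 ± 0.11, edgeR adjusted p = 0.0876), with no overlap between the groups. F2, prothrombin, averaged 1874 ± 74.8 CPM in CDAA and 1505 ± 138 in CSAA (log2 0.32 ± 0.14, edgeR adjusted p = 0.157), also without overlap. F7, factor VII, averaged 83.8 ± 9.87 CPM in CDAA and 67.0 ± 17.4 in CSAA (log2 0.32 ± 0.18, edgeR adjusted p = 0.278), and its groups overlapped. Proc, protein C, which inactivates factors V and VIII, averaged 487.2 ± 28.3 CPM in CDAA and 387.9 ± 46.8 in CSAA (log2 0.33 ± 0.13, edgeR adjusted p = 0.125). Its cofactor Pros1 was at 57.3, 64.0 and 77.8 CPM in CDAA and at 67.1, 70.0 and 73.2 in CSAA (log2 -0.08 ± 0.13, edgeR adjusted p = 0.716). The CDAA values of Pros1 thus spanned those of CSAA.

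The contact system starts coagulation on charged surfaces and releases bradykinin. All 5 genes grouped with it here, Hrg among them, had positive fold changes, except that F12 was at -0.0020 on library size only. With edgeR 1 passed (20%, against 4.25% of all tested genes). DESeq2 called 3 higher (60%, against 7.89% of all genes it tested). These were Klkb1, F12 and Kng1 (DESeq2 adjusted p = 3.63e-05, 0.0115 and 0.0438). Klkb1, plasma prekallikrein, which activates factor XII and cuts kininogen, was at 159.7, 189.0 and 161.0 CPM in CDAA and at 74.5, 97.001 and 113.4 CPM in CSAA. Every CDAA library was above every CSAA library. It rose by 0.84 ± 0.16 on the log2 scale (SE, edgeR adjusted p = 0.0141), and without CDAA replicate 2 the edgeR adjusted p was 0.0522. Positions from the files are on a build that their headers do not name and that differs from the GRCm38.p6 used for promoters, so the coordinates of each are not to be set against the other. Klkb1 (ENSMUSG00000109764) lies on chromosome 8 from 45719726 to 45747896 in the files, and overlaps a gene model on the same strand with 0 reads in every library. Whether reads of Klkb1 were left out of the counts through this overlap was not tested. Kng1, the bradykinin precursor, averaged 1955 ± 181 CPM in CDAA and 1473 ± 278 in CSAA (log2 0.41 ± 0.17, edgeR adjusted p = 0.152). Kng2, a close paralog, could share reads with Kng1, and how multi-mapped reads were counted is not given in the sources used here. Hrg, histidine-rich glycoprotein, which binds plasminogen and heparin, averaged 764.5 ± 49.2 CPM in CDAA and 578.0 ± 118 in CSAA (log2 0.40 ± 0.16, edgeR adjusted p = 0.138).

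F12, factor XII, was at 573.0, 596.7 and 590.0 CPM in CDAA and at 458.0, 486.6 and 505.8 in CSAA (log2 0.28 ± 0.11, edgeR adjusted p = 0.123). F11, factor XI, set 1 library apart. It was at 175.1, 152.3 and 40.3 CPM in CDAA replicates 1 to 3 and at 76.8, 78.1 and 113.8 CPM in CSAA replicates 1 to 3. CDAA replicate 3 held the lowest level of all and CDAA replicates 1 and 2 the highest. The log2 fold change was 0.45 ± 0.46 (edgeR adjusted p = 0.553). Without CDAA replicate 3 it was 0.87 (edgeR adjusted p = 0.0208), and without CDAA replicate 1 it was 0.11. Klkb1, its neighbour on chromosome 8, was at 161.0 CPM in CDAA replicate 3 and did not follow this pattern.

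Fibrinogen is the clot substrate, built from the products of Fga, Fgb and Fgg, which lie next to each other on chromosome 3 and are known as interleukin 6 responsive acute phase genes. Their proximal promoters are shown because the 3 transcripts moved together. The sequences come from RefSeq on GRCm38.p6, run from 250 bases before to 50 after the annotated start, and are written 5′ to 3′ on the strand of the gene. They cover chr3:83025903-83026202 (plus) for Fga, chr3:83049814-83050113 (minus) for Fgb and chr3:83007474-83007773 (plus) for Fgg. Capitals mark matches, on either strand, to any of the motifs TTCNNNGAA (STAT), CTGGGAA (an interleukin 6 response element), GTTAATNA (part of an HNF1 site), TGANTCA (AP-1) or GAGGAAGT (PU.1).
Fga: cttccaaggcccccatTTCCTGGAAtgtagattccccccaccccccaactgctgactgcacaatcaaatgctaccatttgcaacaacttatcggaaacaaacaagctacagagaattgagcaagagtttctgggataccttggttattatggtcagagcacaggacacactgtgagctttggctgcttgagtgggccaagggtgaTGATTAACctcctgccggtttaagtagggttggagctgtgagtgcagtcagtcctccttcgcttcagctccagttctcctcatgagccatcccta
Fgb: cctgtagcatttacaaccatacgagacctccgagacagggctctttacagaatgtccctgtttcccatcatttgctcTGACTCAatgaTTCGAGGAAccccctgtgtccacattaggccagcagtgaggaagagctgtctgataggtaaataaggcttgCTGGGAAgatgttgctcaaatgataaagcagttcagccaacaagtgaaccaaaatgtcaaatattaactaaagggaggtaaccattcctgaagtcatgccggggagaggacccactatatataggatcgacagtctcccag
Fgg: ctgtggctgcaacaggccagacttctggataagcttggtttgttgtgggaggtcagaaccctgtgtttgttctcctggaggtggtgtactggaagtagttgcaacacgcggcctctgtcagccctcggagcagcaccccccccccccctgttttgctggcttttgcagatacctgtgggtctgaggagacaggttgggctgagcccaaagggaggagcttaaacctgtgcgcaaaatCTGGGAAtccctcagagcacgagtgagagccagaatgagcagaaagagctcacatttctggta

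The Fga window held a STAT match starting 234 bases before the start and an HNF1 match 45 bases before it. The Fgb window held an AP-1 match at 173, a STAT match at 162 and an interleukin 6 element at 91 bases before the start. The Fgg window held an interleukin 6 element 13 bases before the start. Of all 32851 promoter windows of this length in the table, 8.30% held the STAT motif, 11.1% the interleukin 6 element, 2.54% the HNF1 motif, 7.81% the AP-1 motif and 3.20% the PU.1 motif. Windows were matched for 24 members, of which 4 held the STAT motif, 4 the interleukin 6 element, 2 the HNF1 motif, 6 the AP-1 motif and 1 the PU.1 motif. The promoters of Serpina10, Plg, Plat, Plau, Proc, Thbd, Kng1 and Vwf were not analysed here. In F9 the STAT and interleukin 6 matches overlap. A match is a description of letters and not of binding.

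The fibrinogen chains were higher in every CDAA library than in any CSAA library, and none of the 3 passed with edgeR, though each had an unadjusted p under 0.05. Fga was at 6668, 5737 and 6804 CPM in CDAA and at 3559, 2485 and 4716 CPM in CSAA (log2 0.84 ± 0.24 SE, edgeR adjusted p = 0.0561). Fgb was at 5425, 5081 and 5699 CPM in CDAA and at 3160, 2454 and 4175 CPM in CSAA (log2 0.73 ± 0.22, edgeR adjusted p = 0.0577). Fgg was at 2812, 2315 and 2777 CPM in CDAA and at 1576, 1099 and 2089 CPM in CSAA (log2 0.73 ± 0.24, edgeR adjusted p = 0.0753). In each chain CSAA replicate 2 was lowest and CSAA replicate 3 highest of its group, while the CDAA libraries lay closer together. Without CSAA replicate 3 all 3 passed, Fga at 1.10 on the log2 scale (edgeR adjusted p = 0.0319). DESeq2 on all 6 libraries also called them, with adjusted p = 0.00135 for Fga, 0.00149 for Fgb and 0.00682 for Fgg.

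Chain ratios changed little next to these levels. The Fgg to Fga read ratio was 0.422, 0.404 and 0.408 in CDAA and 0.443, 0.442 and 0.443 in CSAA, a difference of -0.11 on the log2 scale (exact two-sided permutation p = 0.1, the smallest that 3 against 3 can give). The Fgb to Fga ratio was 0.814, 0.886 and 0.838 in CDAA and 0.888, 0.988 and 0.885 in CSAA, a difference of -0.12 (exact two-sided permutation p = 0.2). The Fgg to Fga ratio thus kept the groups apart, with CDAA lower, while for Fgb to Fga the groups overlapped.

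Other acute phase genes gave a mixed picture, and many moved opposite to fibrinogen. Of a list of 12, 7 were lower in CDAA and 0 higher with edgeR (1 higher at an unadjusted p under 0.05, and 0 higher with DESeq2), and the list median was -0.96. The other 5 did not pass, and 3 of them, Crp, Itih4 and Cp, had positive log2 fold changes (0.39, 0.29 and 0.023). Hp, haptoglobin, which binds free haemoglobin, was at 1635, 1692 and 1016 CPM in CDAA and at 3024, 2683 and 3097 CPM in CSAA (log2 -1.02, edgeR adjusted p = 0.0187). Reads of the 3 fibrinogen chains per 1000 reads of Hp were 9119, 7762 and 15038 in CDAA and 2744, 2250 and 3545 in CSAA. The lack of overlap follows from the levels, as each chain was higher and Hp lower in all CDAA libraries. Per 1000 reads of Alb the chains were at 210.0, 160.4 and 181.6 in CDAA and 167.3, 101.2 and 164.3 in CSAA, where the groups overlapped. On the same Alb scale Klkb1 stayed apart, at 2.25, 2.31 and 1.91 in CDAA and 1.502, 1.63 and 1.70 in CSAA, while F10 overlapped, at 5.80, 5.05 and 4.89 in CDAA and 5.48, 4.49 and 5.22 in CSAA. Alb itself did not pass between the groups with edgeR (log2 0.43, edgeR adjusted p = 0.309). It was higher in every CDAA library than in any CSAA library, and DESeq2 called it higher (DESeq2 adjusted p = 0.0162). Alb is thus not a steady reference, and dividing by it draws the groups together for genes higher in CDAA. These ratios within a library were chosen after the levels were seen and carry no test.

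**Figure D3:**
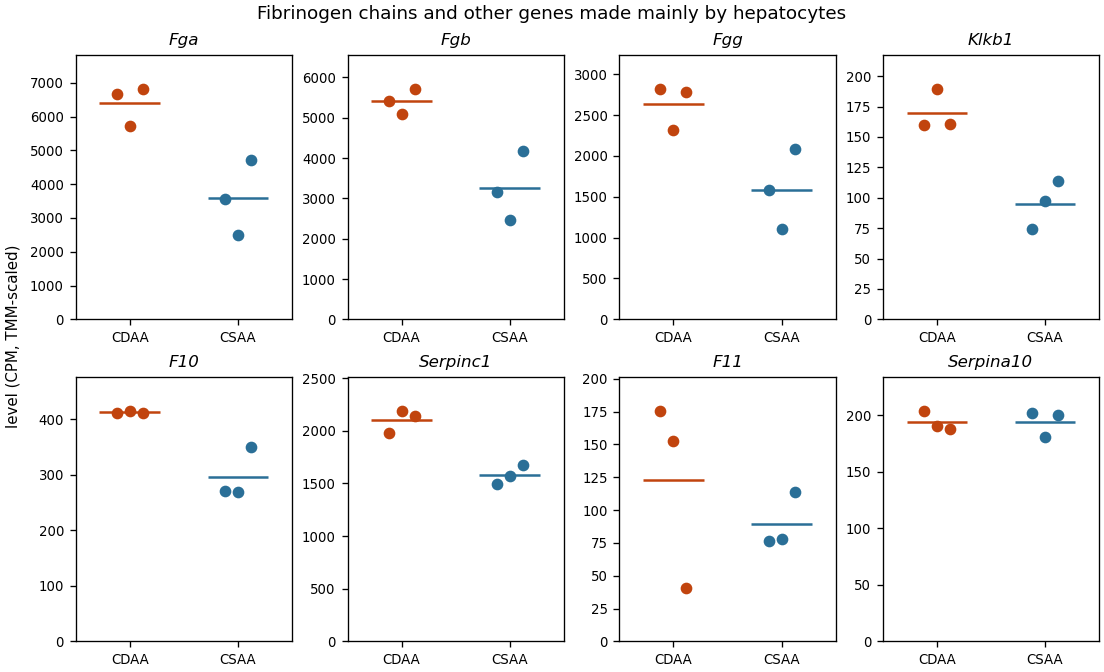
Level in CPM of 8 genes made mainly by hepatocytes, 1 point a library, with the group mean as a line and CDAA left of CSAA. The fibrinogen chains, Klkb1, F10 and Serpinc1 lie higher in all CDAA libraries, F11 has 1 CDAA library at 40.3 CPM below all CSAA libraries, and Serpina10 overlaps.

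Factor XIII, which cross-links fibrin, is made of a catalytic subunit from F13a1, expressed by macrophages and megakaryocytes, and a carrier subunit from F13b of hepatocytes. F13b was at 247.4, 261.8 and 253.9 CPM in CDAA and at 171.9, 188.7 and 242.6 CPM in CSAA (log2 0.34 ± 0.14, edgeR adjusted p = 0.148). F13a1 was at 4.41, 0.370 and 0.497 CPM in CDAA replicates 1 to 3 and at 2.80, 2.24 and 2.61 CPM in CSAA replicates 1 to 3. CDAA replicate 1 stood above every CSAA library and CDAA replicates 2 and 3 below, and the test over all libraries gave -0.54 ± 0.80 on the log2 scale (edgeR adjusted p = 0.693). Without CDAA replicate 1 the log2 fold change was -2.53 (edgeR adjusted p = 0.0184), on 5 and 7 reads in the CDAA libraries left. CDAA replicate 1 is the library with pancreatic acinar and striated muscle transcripts, and their part in its F13a1 level was not tested. The ratio of F13a1 to F13b reads was 0.0178, 0.00141 and 0.00196 in CDAA and 0.0163, 0.0119 and 0.0107 in CSAA (log2 difference -1.80, exact two-sided permutation p = 0.4). Over the 4 ratios tested, the Benjamini-Hochberg adjusted exact p was 0.267 for Fgb to Fga, Fgg to Fga and F3 to Tfpi and 0.4 for F13a1 to F13b.

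Among the anticoagulants 1 of 8 was lower with edgeR (12.5%, against 10.5% of all tested genes) and 7 did not pass. DESeq2 called the same 1 lower, and 2 higher (25%, against 7.89% of all genes it tested), Serpinc1 and Proc. Procr, the endothelial protein C receptor, which presents protein C for activation, was at 1.29, 0.962 and 1.28 CPM in CDAA and at 6.93, 3.09 and 6.33 CPM in CSAA. All CDAA libraries lay below all CSAA libraries, on 13 to 18 reads each in CDAA and 58 to 141 in CSAA. It fell by 2.20 ± 0.38 on the log2 scale (SE, edgeR adjusted p = 0.00923), and it passed with each library left out. Procr (ENSMUSG00000027611) lies on chromosome 2 from 155593037 to 155597391 in the files. Thbd, thrombomodulin, the endothelial receptor that turns thrombin towards protein C, averaged 9.46 ± 2.05 CPM in CDAA and 11.3 ± 2.09 in CSAA (log2 -0.26 ± 0.22, edgeR adjusted p = 0.476). Tfpi, tissue factor pathway inhibitor, was at 10.04, 11.2 and 12.2 CPM in CDAA and at 16.9, 11.7 and 17.6 in CSAA (log2 -0.47 ± 0.19, edgeR adjusted p = 0.136). CSAA replicate 2 lay within the CDAA range for Tfpi. On library size only, Tfpi, F8 and Vwf passed as lower (log2 -0.75, -0.54 and -0.53, edgeR adjusted p = 0.0292, 0.0316 and 0.0438).

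The hepatocyte serpins did not pass with edgeR. Serpinc1, antithrombin, the main inhibitor of thrombin and factor Xa, was at 1982, 2184 and 2142 CPM in CDAA and at 1498, 1570 and 1675 CPM in CSAA (log2 0.41 ± 0.13, edgeR adjusted p = 0.0734). The groups did not overlap, and DESeq2 called it with adjusted p = 0.000408. Serpind1, heparin cofactor II, averaged 596.8 ± 86.7 CPM in CDAA and 488.2 ± 66.1 in CSAA (log2 0.29 ± 0.16, edgeR adjusted p = 0.253). Serpina10, the protein Z-dependent inhibitor of factor Xa, averaged 194.2 ± 8.10 CPM in CDAA and 194.4 ± 11.97 in CSAA (edgeR adjusted p = 0.992). Its log2 fold change was -0.0018 with an SE of 0.10, and the sign turned between alternatives. Serpina10 was thus within its spread while the other hepatocyte serpins had positive fold changes.

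Of the 6 fibrinolysis genes, 3 were lower in CDAA (50%, against 10.5% of all tested genes). These are the activators and the receptor, and they are also the 3 made mainly by other cells. Role and cell source therefore coincide in this family. Plau, the urokinase-type plasminogen activator, was at 1.14, 1.63 and 0.568 CPM in CDAA and at 13.5, 6.88 and 6.77 CPM in CSAA. It fell by 3.02 ± 0.44 on the log2 scale (SE, edgeR adjusted p = 0.00474). Plaur, the receptor that holds urokinase at the cell surface, was at 1.29, 1.26 and 1.14 CPM in CDAA and at 10.2, 3.84 and 5.59 CPM in CSAA. It fell by 2.41 ± 0.41 (SE, edgeR adjusted p = 0.0086). For both genes all CDAA libraries lay below all CSAA libraries and CSAA replicate 1 was the highest. Plat, the tissue-type activator of endothelial cells, was at 1.90, 1.18 and 0.923 CPM in CDAA and at 6.53, 4.48 and 4.72 CPM in CSAA. It fell by 1.97 ± 0.34 (SE, edgeR adjusted p = 0.00931). Plau and Plaur passed with each library left out, and Plat had an edgeR adjusted p of 0.0506 without CSAA replicate 1. These levels are low, with 8 to 25 reads per CDAA library and 72 to 274 per CSAA library for the 3 genes, but above the 3 reads taken as the floor. In the files Plau (ENSMUSG00000021822) lies on chromosome 14 from 20886728 to 20893453, Plaur (ENSMUSG00000046223) on chromosome 7 from 24161909 to 24175393 and Plat (ENSMUSG00000031538) on chromosome 8 from 23247743 to 23272860.

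The substrate and the inhibitors made by hepatocytes did not pass with edgeR. Of these, DESeq2 called Plg alone higher (DESeq2 adjusted p = 0.0199). Plg, the zymogen of plasmin, averaged 2124 ± 266 CPM in CDAA and 1533 ± 260 in CSAA (log2 0.47 ± 0.17, edgeR adjusted p = 0.112). Serpinf2, alpha 2-antiplasmin, was at 835.4, 867.4 and 613.4 CPM in CDAA and at 455.8, 495.3 and 704.6 CPM in CSAA (log2 0.48 ± 0.21, edgeR adjusted p = 0.157). Cpb2, the carboxypeptidase that removes plasminogen binding sites from fibrin, was at 338.4, 341.8 and 259.8 CPM in CDAA and at 218.6, 209.2 and 289.0 CPM in CSAA (log2 0.39 ± 0.17, edgeR adjusted p = 0.157). In all 3, CDAA replicate 3 was the lowest of its group and CSAA replicate 3 the highest of its own, and these 2 libraries made the groups overlap.

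**Figure D4:**
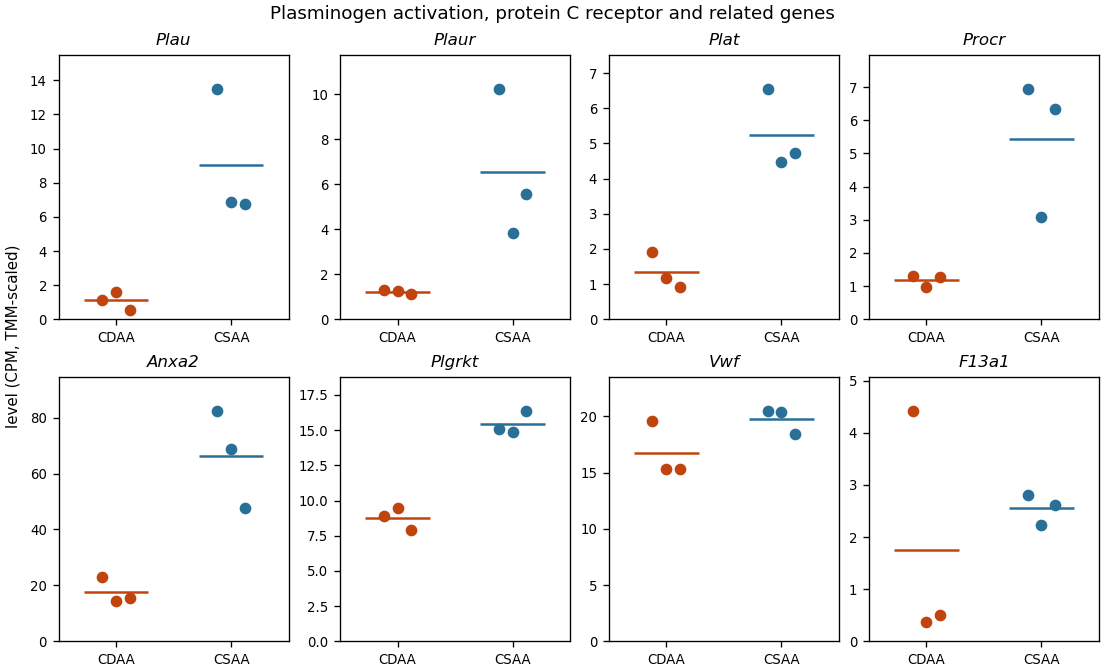
Level in CPM of 8 genes of plasminogen activation, the protein C receptor and related functions, 1 point a library, with the group mean as a line and CDAA left of CSAA. Plau, Plaur, Plat, Procr, Anxa2 and Plgrkt lie lower in all CDAA libraries, while Vwf and F13a1 overlap.

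The genes that fell are known from macrophages, endothelium and other non-parenchymal cells, and the summed markers of these cells were also lower in CDAA. Neutrophil markers, a list of 8, summed to between 6.46 and 7.74 CPM in CDAA and between 15.1 and 32.5 CPM in CSAA, and 2 of the 3 tested were lower, S100a9 and Csf3r. Biliary markers, a list of 5, summed to between 30.9 and 46.5 CPM in CDAA and between 55.99 and 82.9 CPM in CSAA, with 1 lower. The part of all these cells in the changes of Plau, Plaur, Plat and Procr was not tested. In bulk liver, fewer cells of a type and less RNA per cell cannot be told apart. Reads of Plau were also set against markers in the same library. Per 1000 reads of the macrophage list they were 1.79, 2.39 and 0.677 in CDAA and 5.81, 4.55 and 3.18 in CSAA, without overlap. Plaur was at 2.03, 1.84 and 1.35 per 1000 on that scale in CDAA and at 4.41, 2.54 and 2.62 in CSAA, also without overlap. The markers of that list changed unequally. Clec4f and Mrc1 did not pass (log2 -0.33 and -0.23), while Cd68 was lower at log2 -2.14 and Trem2 at -4.26. Trem2 thus fell further than Plau and Plaur. Ratios to single markers were not tested, and the separations are given for the summed list only. Plat was at 3.45, 2.01 and 1.61 reads per 1000 reads of the endothelial list in CDAA and at 9.09, 5.97 and 6.57 in CSAA. Procr was at 2.35, 1.63 and 2.23 on that scale in CDAA and at 9.64, 4.12 and 8.82 in CSAA. Vwf overlapped there, at 35.6, 25.9 and 26.8 in CDAA and 28.4, 27.2 and 25.7 in CSAA. A list of 9 stellate cell and fibroblast markers summed to between 360.5 and 634.4 CPM in CDAA and between 945.0 and 1249 CPM in CSAA, with 6 lower, and 7 platelet markers to between 4.47 and 5.63 CPM in CDAA and between 5.40 and 7.14 CPM in CSAA. Gp1bb, a platelet receptor subunit, had 0 reads in all 6 libraries.

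**Figure D5:**
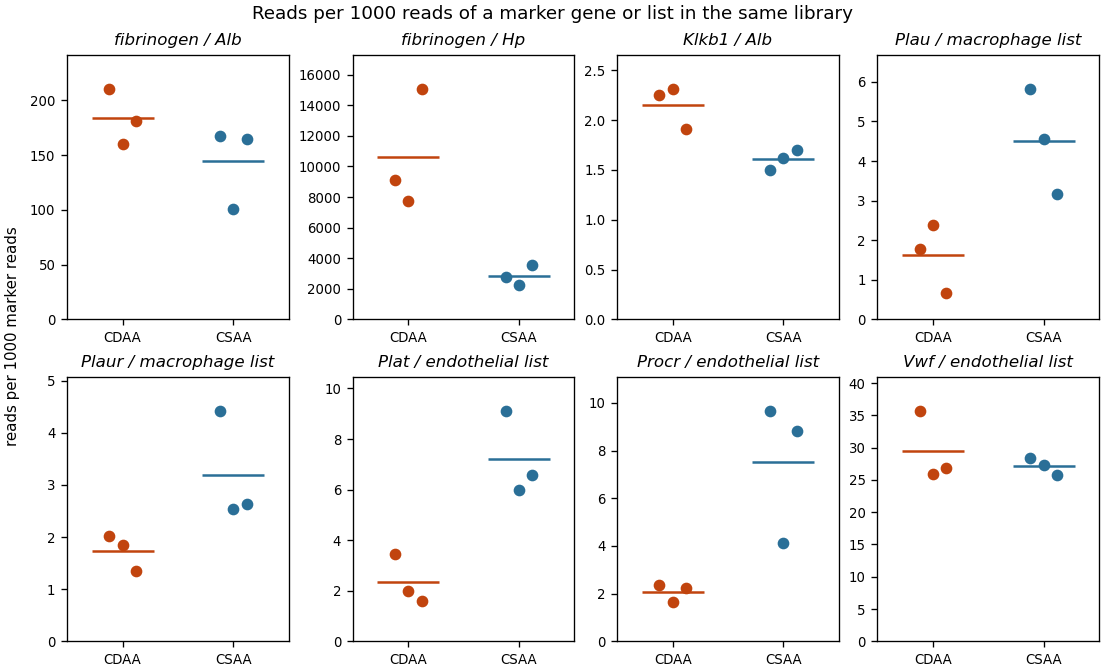
Reads of a gene per 1000 reads of Alb, Hp or a marker list in the same library, 1 point a library, with the group mean as a line and CDAA left of CSAA. Fibrinogen stands for Fga, Fgb and Fgg summed. The groups stay apart for fibrinogen over Hp, Klkb1, Plau, Plaur, Plat and Procr, and overlap for fibrinogen over Alb and for Vwf. Alb itself was higher in all CDAA libraries. Fibrinogen over Hp had to separate, since each chain was higher and Hp lower in all CDAA libraries. The macrophage list sums markers that changed unequally.

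The promoters of Procr and Plaur are shown because both genes fell and each window holds the AP-1 letters TGACTCA once, in capitals. The sequences are from RefSeq on GRCm38.p6, at chr2:155750967-155751266 (plus) for Procr and chr7:24462233-24462532 (plus) for Plaur, and the match starts 154 bases before the start in Procr and 69 in Plaur. The F3 window holds the AP-1 motif at 146 and 135 bases before its start, and F3 did not pass. The AP-1 motif also stands in the windows of Fgb, Hrg and F2, which had positive fold changes that did not pass with edgeR.
Procr: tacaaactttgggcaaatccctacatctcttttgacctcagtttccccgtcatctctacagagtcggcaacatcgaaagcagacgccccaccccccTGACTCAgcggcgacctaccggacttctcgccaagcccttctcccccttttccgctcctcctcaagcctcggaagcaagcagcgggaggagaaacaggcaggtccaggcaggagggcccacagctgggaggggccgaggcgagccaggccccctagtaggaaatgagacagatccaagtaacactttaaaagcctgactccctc
Plaur: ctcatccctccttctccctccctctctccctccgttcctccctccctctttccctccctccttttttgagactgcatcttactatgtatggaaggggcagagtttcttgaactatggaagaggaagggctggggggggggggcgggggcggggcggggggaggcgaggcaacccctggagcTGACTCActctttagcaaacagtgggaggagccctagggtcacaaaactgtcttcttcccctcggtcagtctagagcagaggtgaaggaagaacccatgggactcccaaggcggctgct

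Other genes of haemostasis were counted from a list of 34, of which 28 were tested. Of these 1 was higher in CDAA (3.57%), 3 were lower (10.7%) and 24 did not pass, shares near those of all tested genes by edgeR. DESeq2 tested 30 of the list and called 5 higher (16.7%, against 7.89% of all genes) and 4 lower (13.3%, against 11.3%). The list median was 0.20. Anxa2, annexin A2, a cell-surface receptor for plasminogen and its tissue activator, was at 23.1, 14.4 and 15.6 CPM in CDAA and at 82.2, 68.9 and 47.5 CPM in CSAA (log2 -1.90 ± 0.24, edgeR adjusted p = 0.00307). Plgrkt, another plasminogen receptor, was at 8.90, 9.47 and 7.88 CPM in CDAA and at 15.1, 14.9 and 16.3 in CSAA (log2 -0.82 ± 0.14, edgeR adjusted p = 0.00954). Fgl2, a membrane prothrombinase of macrophages, was at 12.1, 7.40 and 9.02 CPM in CDAA and at 19.9, 18.3 and 19.6 in CSAA (log2 -1.02 ± 0.19, edgeR adjusted p = 0.0117). All 3 genes had no overlap between the groups. Anxa2 and Plgrkt passed with each library left out, and Fgl2 did not without CSAA replicate 1 (edgeR adjusted p = 0.0589).

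Tfpi2, a Kunitz inhibitor of plasmin and trypsin, was at 116.8, 71.1 and 83.7 CPM in CDAA and at 49.5, 53.8 and 59.3 CPM in CSAA (log2 0.74 ± 0.18, edgeR adjusted p = 0.032). It did not pass without CDAA replicate 1 or when any CSAA library was left out (edgeR adjusted p between 0.0516 and 0.117). CDAA replicate 1, where Tfpi2 was highest, is the library with pancreatic acinar and striated muscle transcripts. Their part in its Tfpi2 level was not tested. F2r, the thrombin receptor PAR1, averaged 49.1 ± 17.1 CPM in CDAA and 61.1 ± 6.03 in CSAA (log2 -0.32 ± 0.24, edgeR adjusted p = 0.414). Ggcx, the gamma-carboxylase of the vitamin K-dependent factors, averaged 98.3 ± 15.4 CPM in CDAA and 83.1 ± 8.38 in CSAA (log2 0.24 ± 0.14, edgeR adjusted p = 0.281). Vkorc1, the vitamin K epoxide reductase, had 4, 11 and 5 reads in CDAA and 6, 25 and 9 in CSAA and was not tested. In the files it overlaps another gene model on the same strand that has 0 reads in every library, and whether reads of Vkorc1 were left out of the counts was not tested.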

How the data were processed

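The deposited read counts are whole-number, unnormalised reads per gene, per the file headers; FPKM values, also from the authors per the file headers, equalled counts over listed length and library total within 0.001 for 100% of values and had no other use. HISAT2 2.0.5, cutadapt 1.15, DESeq 1.30.0 and HTSeq 0.9.1, and the builds mm10 and mm9, are named per the submitters' processing notes. For their roles, and for the strand setting, the sources used here give nothing. The labels give 3 mice per group but no pairing, and no library pair differed by as little as counting noise.

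The main test was edgeR 4.0.16 under R 4.3.3 (filterByExpr, TMM, glmQLFit and glmQLFTest; CDAA against CSAA, no covariate), with Benjamini-Hochberg adjustment over 12845 genes. SE is the log2 fold change over the root of F. Functions were tested on simulated data. Alternatives were RLE, upper-quartile and no scaling factors, other filters, DESeq2 1.42.0, the replicate block, and leaving out each library. The labels mention no molecular identifiers, so a floor of 3 reads covers counting error only; 3 reads correspond to 0.147 to 0.228 CPM. The members, gene lists, motifs and the rule naming all 32 members, passing genes of the haemostasis list, F2r, Vkorc1 and Ggcx were chosen with earlier results of these data known. Other genes were named after their values were seen. One hepatocyte list entry was not analysed here. A gene of the haemostasis list that the rule names is not reported here.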

Additional observations from a re-analysis of the deposited data

How the results depend on the processing

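The 4 members lower in CDAA with all libraries were 7 on library size only and 4 under the other scalings, filters, DESeq2 and the replicate block. Leaving out 1 library gave 3 to 5. The 2 members higher were 1 on library size only, with upper-quartile factors, with no filter on low counts and with the replicate block, and 12 with DESeq2. Leaving out 1 library gave 0 (without CDAA replicate 2) to 7 (without CSAA replicate 3), and 1 without CDAA replicate 1, CSAA replicate 1 or CSAA replicate 2. Of the other haemostasis genes, the 1 higher became 3 with RLE factors, 0 on library size only or with the replicate block, 2 with at least 1 CPM in 3 libraries and 5 with DESeq2, and 0 to 2 without 1 library. The 3 lower became 6 on library size only and 2 to 4 without 1 library. The cause of these shifts was not tested, beyond the fewer samples when a library is left out. Same-numbered libraries had correlated deviations of 0.049, 0.14 and -0.090, so the numbers were not taken as pairs; the replicate block ended the calls of F10 (edgeR adjusted p = 0.0808) and Tfpi2 (edgeR adjusted p = 0.0593).

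Signs turned in genes that did not pass. On library size only the log2 fold change was -0.11 for F5, -0.0020 for F12 and -0.041 for Ggcx. Leaving out each library in turn gave -0.44 to 0.019 for F3, -0.21 to 0.019 for Pros1 and -0.042 to 0.049 for Serpina10, with F3 above 0 only without CSAA replicate 3 and Pros1 only without CDAA replicate 1. For Serpina10 it was 0.021 with RLE factors, 0.00041 with no filter, 0.025 with DESeq2 and above 0 without CDAA replicate 2, CDAA replicate 3, CSAA replicate 1 or CSAA replicate 3. The log2 differences of the 4 read ratios kept their sign with each library left out: -0.155 to -0.0691 for Fgb to Fga, -0.126 to -0.0938 for Fgg to Fga, -2.94 to -1.11 for F13a1 to F13b and 0.133 to 0.359 for F3 to Tfpi. Depth limits Plau, Plaur, Plat, Procr and F13a1 most, which rest on under 30 reads in most CDAA libraries.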
